A study of Homo sapiens with 18 samples.

Results

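TBPL1 and SLC2A12 are neighbouring genes on human chromosome 6 whose last exons lie on top of each other on opposite strands. Their rows were taken by gene name from the table of expected counts, so they are 2 of its 57773 rows and 2 of the 5816 rows with enough counts to test. TBPL1 was chosen by its measured counts, since its row was higher with tamoxifen in each of the 3 lines studied, and those contrasts are therefore given here as a description with no p. SLC2A12 was taken because it lies opposite TBPL1. RNA-seq was done in RWPE-1 cells, an established non-malignant human prostate epithelial line, selected with blasticidin for 1 of 3 stably introduced MACC constructs. In every line the construct joined the DNA-binding domain of the androgen receptor, which recognises androgen response elements (AREs), to ERT2, a mutated oestrogen receptor domain that makes it tamoxifen-inducible. To this core the neutral construct added an epitope tag alone (3X FLAG), the repressive one the repressor domain KRAB, and the activating one the activator domain VP64. Cells of each line were kept for 48 hours in tamoxifen or its ethanol vehicle, with 3 biological replicates in each of the 6 groups. Of the label fields that state a dose of tamoxifen, one reads 1.5 uM and another 1.25 uM. Whether a line was a single clone is not given in the sources used here. All 18 libraries came from cells that carried an ARE-binding construct, so an effect of tamoxifen itself and an effect of the neutral construct cannot be told apart.

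TBPL1 encodes a relative of TBP, the TATA-binding protein that places RNA polymerase II at promoters. It pairs with TFIIA but does not bind the TATA box, and it is best known from the late stages of sperm development. SLC2A12 encodes GLUT12, a facilitative glucose transporter found in insulin-responsive tissues and in prostate and breast epithelium, where its level has been tied to androgen and oestrogen signalling. Facilitative transporters let glucose run down its gradient into the cell, where hexokinases trap it and glycolysis breaks it down.

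In the GENCODE annotation mapped to GRCh37, TBPL1 (ENSG00000028839) lies on the plus strand at chr6:134273308-134311570. SLC2A12 (ENSG00000146411) lies on the minus strand at chr6:134308719-134373762. The genes run towards each other and share the exonic segment chr6:134308719-134311570, which is 2852 bases long. That segment is 56.6% of the 5039 exonic bases of TBPL1 and 51.2% of the 5572 exonic bases of SLC2A12. It holds 0 coding bases of either gene and is 3′ UTR of both. Only 1 of the 8 annotated TBPL1 transcripts, of 4199 bases, reaches into it, whereas the only annotated SLC2A12 transcript contains all of it.

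The outer ends of the shared segment are printed because they are where each transcript stops, each read 5′ to 3′ on its own gene's strand, with the polyadenylation signal AATAAA in capitals.
TBPL1, last 30 bases, chr6:134311541-134311570, plus strand: ctaAATAAAtatggtcccaggattttaaaa
SLC2A12, last 30 bases, chr6:134308719-134308748, minus strand: aagaagccaacacactttagccaaagtctt
The TBPL1 end held the signal, and neither AATAAA nor its common variant ATTAAA was found in the last 30 bases of SLC2A12. Of 988 protein-coding genes on chromosome 6, 52.7% held AATAAA and 65.4% held one of the variants in the last 30 bases.

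**Figure D1:**
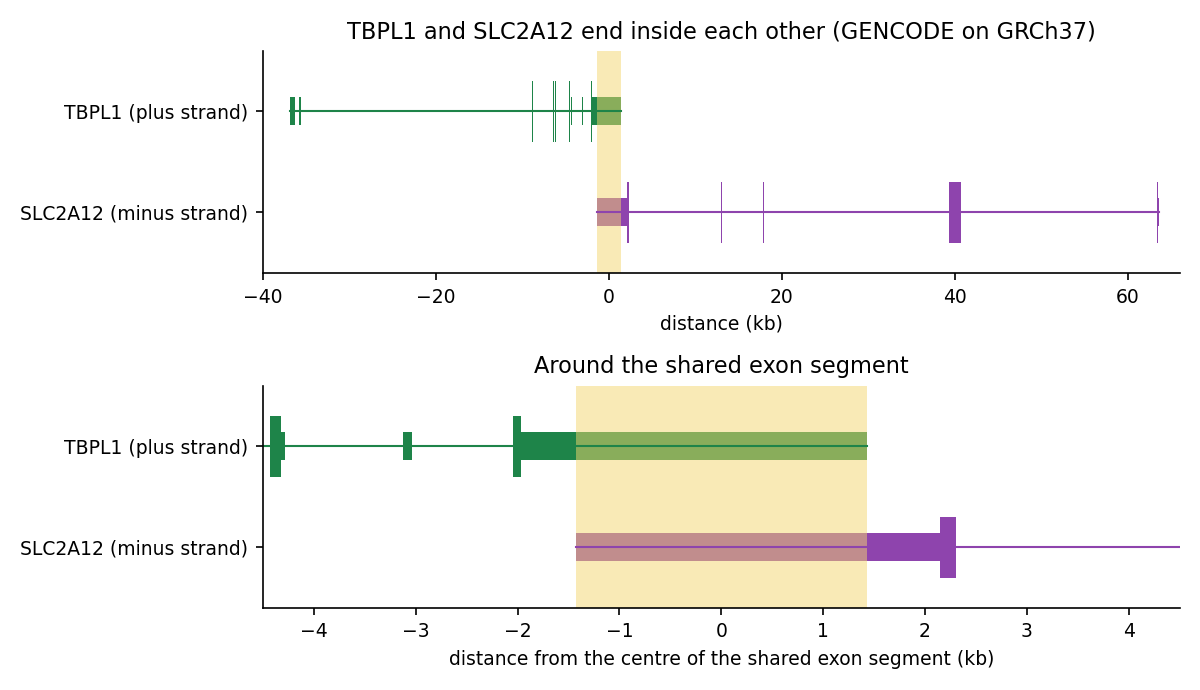
Exons of TBPL1 (upper line, plus strand) and SLC2A12 (lower line, minus strand) drawn to scale against the distance in kb from the centre of their shared exon segment, with coding parts as tall boxes, untranslated parts as low boxes and the shared segment shaded. The lower panel enlarges the 2852 shared bases, in which neither gene has a tall box.

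The libraries were made with a kit that keeps the strand, and the strand setting used for counting is not given in the sources used here. Reads of one gene may therefore stand in the row of the other, and each row is named below as the table names it. Of the 5635 tested rows matched to the annotation, 3639 (64.6%) had exons overlapped on the opposite strand, and these held 89% of the counts of matched tested rows. GAPDH, a glycolytic enzyme that most cells express at a high level, had 213 to 389 counts per library in its own row, and the lncRNA row opposite it (RP5-940J5.9) had 22264 to 30839. Total counts per library were 675609 to 792282, and at this depth 1 library gives few counts for a gene of moderate level. Markers of basal prostate epithelium were present in 6 of 6 rows, summing to 1747 to 3038 CPM (counts scaled to a common library total). Luminal markers had counts in 5 of 6 rows and summed to 797 to 1325 CPM, with KLK3 at 0. Fibroblast markers had counts in 1 of 5 rows (COL1A1) and summed to at most 16.7 CPM. Of the leukocyte and endothelial markers, PTPRC, CD3E, VWF and CDH5 had 0 counts, and CD68, a lysosomal protein gene of macrophages, had 9 to 29 in each library. The row opposite CD68, AC113189.5, had 7 to 39 counts and was called higher with tamoxifen in the repressive line (1.27 ± 0.44, log2, SE; DESeq2 adjusted p 0.0344). Its part in the TBPL1 values was not tested.

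The TBPL1 row was low in all vehicle libraries and higher with tamoxifen, most of all in the repressive line. In the neutral line it had 29, 29 and 36 counts with vehicle and 84, 79 and 63 with tamoxifen. In the repressive line the counts were 52, 47 and 48 with vehicle and 147, 188 and 190 with tamoxifen. In the activating line they were 42, 27 and 36 with vehicle and 45, 85 and 89 with tamoxifen. In no line did the vehicle and tamoxifen libraries overlap, although in the activating line the lowest tamoxifen library stood just above the highest vehicle library.

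On the scale of normalized counts (counts divided by a size factor for each library), the TBPL1 row averaged 31.1 ± 3.95 (SD, n = 3) with vehicle and 74 ± 8.8 with tamoxifen in the neutral line. The means were 45.2 ± 3.71 and 187 ± 39.3 in the repressive line, and 32.4 ± 6.29 and 68.9 ± 20.2 in the activating line. Ordered by level, the neutral and activating vehicle groups came first and overlapped. The repressive vehicle group followed, and its lowest library (42.2) stood above the highest activating vehicle library (38.6). The activating and neutral tamoxifen groups came next, overlapping each other, and the activating one also overlapped the repressive vehicle group. The repressive tamoxifen group stood apart, from 143 to 218, against at most 82 in any other library. In bulk RNA, more cells that express a gene and more RNA per cell cannot be told apart.

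As a description, the tamoxifen difference of the TBPL1 row was 1.25 ± 0.27 (log2, SE) in the neutral line, a 2.38-fold higher level with a 95% interval of 1.65 to 3.44. It was 2.04 ± 0.25 in the repressive line, which is 4.12-fold (2.95 to 5.75). It was 1.09 ± 0.27 in the activating line, which is 2.13-fold (1.48 to 3.06). Over all tested rows, 0.327% were called higher and 0.447% lower in the neutral line, 5.62% higher and 4.02% lower in the repressive line, and 1.34% higher and 1.46% lower in the activating line. A row was called where DESeq2 gave a Benjamini-Hochberg adjusted p under 0.05. The median difference of all tested rows was 0.00, -0.02 and -0.00 in the neutral, repressive and activating line.

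**Figure D2:**
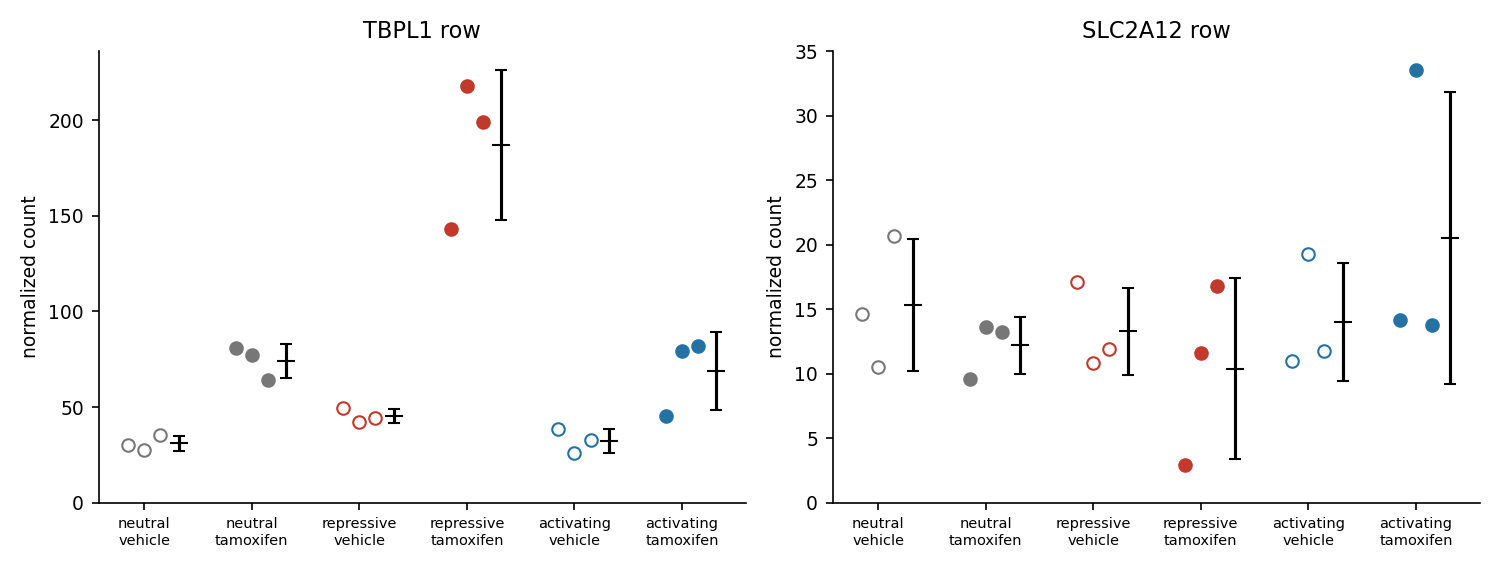
Normalized counts of the TBPL1 row (left) and the SLC2A12 row (right) in each library, by construct and treatment, with open circles for vehicle, filled circles for tamoxifen, and a black bar for the mean ± SD of 3 libraries (the axes differ). The repressive tamoxifen libraries of TBPL1 lie between 143 and 218, while the SLC2A12 groups overlap throughout.

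Whether the size of the TBPL1 difference depended on the construct was tested as an interaction. The row was not chosen by this contrast itself. It is built from the tamoxifen differences by which the row was chosen, however, and so is not independent of that choice. The difference in the repressive line exceeded that in the neutral line by 0.79 ± 0.37 (log2, SE; 95% interval 0.08 to 1.51), with an adjusted p of 0.191 in DESeq2, while 3.85% of all tested rows were called in this comparison. The difference in the activating line was below that in the repressive line by a log2 value of -0.95 ± 0.36 (interval -1.67 to -0.24), with an adjusted p of 0.0958, against 4.25% of rows called. Neither passed the threshold after adjustment over all rows, although both intervals for the single row lay to one side of 0. Without the lowest of the 3 repressive tamoxifen libraries (replicate 1), the second of these was -1.12 with an adjusted p of 0.0437 in DESeq2, so that 1 library decided this call. The activating and neutral lines differed by -0.16 ± 0.38 (interval -0.91 to 0.59; DESeq2 adjusted p 0.924), where 0.619% of rows were called. That interval still allows a difference of either sign.

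Before induction the TBPL1 row did not pass the test between any lines. The vehicle libraries also enter the tamoxifen differences by which the row was chosen, so these tests are not independent of that choice. In vehicle the repressive line was above the neutral line by 0.54 ± 0.28 (log2, SE; 95% interval -0.01 to 1.09; DESeq2 adjusted p 0.358), and 2.51% of rows were called in that comparison. The activating line differed from the neutral line by 0.06 ± 0.29 (interval -0.51 to 0.63) and received no adjusted p under the independent filter on low counts. Without that filter the DESeq2 adjusted p was 0.983, and with the filter 0.808% of rows were called. The activating line was lower than the repressive line by a log2 value of -0.48 ± 0.28 (interval -1.02 to 0.06; DESeq2 adjusted p 0.445), where 1.72% of rows were called.

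The SLC2A12 row was below the TBPL1 row in every library, and its tamoxifen differences did not pass a test in any line. It had 14, 11 and 21 counts with vehicle and 10, 14 and 13 with tamoxifen in the neutral line. In the repressive line the counts were 18, 12 and 13 with vehicle and 3, 10 and 16 with tamoxifen. In the activating line they were 12, 20 and 13 with vehicle and 14, 36 and 15 with tamoxifen. Vehicle and tamoxifen libraries overlapped in every line, and the extremes of the row, 3 and 36 counts, were each reached by 1 library whose replicates lay in the common range. Group means of normalized counts ran from 10.4 ± 7 (SD, n = 3) in the repressive tamoxifen group to 20.5 ± 11.3 in the activating tamoxifen group, and no neighbours in that order were separated.

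Over the 3 lines, the SLC2A12 row differed between tamoxifen and vehicle by -0.13 on the scale of log2(normalized count + 1), with p = 0.689 in a two-sided exact permutation test within lines (8000 arrangements). Without replicate 1 of the repressive tamoxifen group the difference was 0.09 (exact permutation p = 0.693), so its direction rested on 1 library. Line by line, the fitted differences were -0.33 ± 0.55 (log2, SE; 95% interval -1.40 to 0.75) in the neutral line and -0.36 ± 0.56 (-1.46 to 0.75; DESeq2 adjusted p 0.798) in the repressive line. In the activating line the difference was 0.55 ± 0.53 (-0.48 to 1.58), and without tamoxifen replicate 2, the library with 36 counts, it was -0.00. Without the independent filter the adjusted p in DESeq2 was 0.953 in the neutral and 0.798 in the activating line. These intervals are wide, and changes of the size seen in the TBPL1 row in the activating line (1.09) would lie inside the interval for that line. The TBPL1 differences in the neutral line (1.25) and the repressive line (2.04) lay above the SLC2A12 intervals of those lines. In the neutral line, however, the TBPL1 interval (0.72 to 1.78) overlapped that of SLC2A12. The TBPL1 row was also chosen on these differences, and the contrast between the rows was not tested. Single libraries moved the other lines too. Without the repressive tamoxifen replicate 1 the difference in that line was 0.11 ± 0.58 (log2, SE), and without its replicate 3 it was -0.90 ± 0.67. Without the neutral vehicle replicate 3 the difference in the neutral line was -0.04 ± 0.63.

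**Figure D3:**
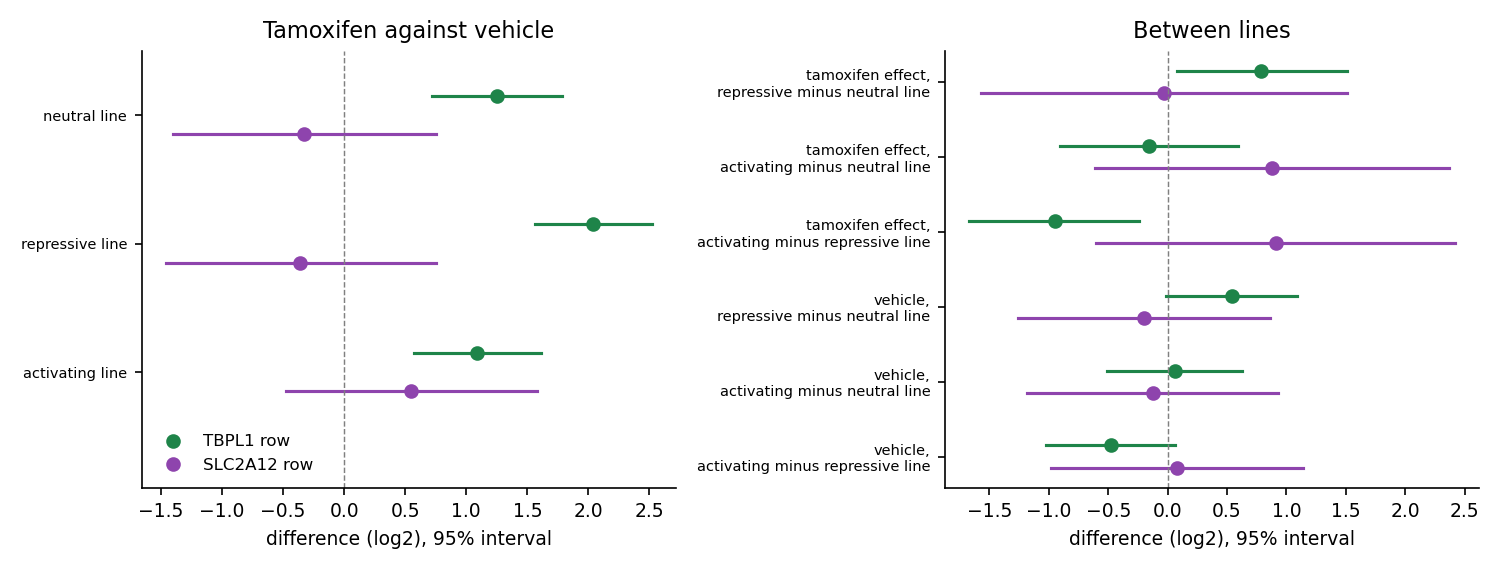
Differences on the log2 scale from the fit over 18 libraries, with 95% intervals, for the TBPL1 row (green) and the SLC2A12 row (purple): tamoxifen against vehicle in each line (left), and the differences of tamoxifen effects and of vehicle levels between lines (right). TBPL1 lies to the right of 0 in each line on the left (2.04 in the repressive line), and every SLC2A12 interval includes 0.

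Because the rows share more than 50% of their exonic bases, their counts were also set against each other. Over all libraries the pair held 1316 counts at TBPL1 and 265 at SLC2A12, so that 83.2% stood at TBPL1. Per kb of annotated exon, the mean level over 18 libraries was 14.5 ± 11.3 normalized counts (SD) for TBPL1 and 2.56 ± 1.12 for SLC2A12. Mean normalized counts were 73.1 for TBPL1, above 80.9% of tested rows, and 14.3 for SLC2A12, above 45%. Such unequal counts were common. Among 583 tail-to-tail pairs of protein-coding genes with at least 180 summed counts, the row with more counts held a median of 88.4% (quartiles 72.5% and 96.6%). The overlap of TBPL1 and SLC2A12 was longer than in 93.1% of these pairs, whose median was 719 bases.

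The share at TBPL1 moved with treatment, which follows from the TBPL1 counts and is given as a description. From summed counts of a group it was 67.1% with vehicle (95% exact Clopper-Pearson interval 58.7 to 74.8) and 85.9% with tamoxifen (81.1 to 89.9) in the neutral line. In the repressive line it was 77.4% (70.8 to 83.1) with vehicle and 94.8% (92.6 to 96.5) with tamoxifen. In the activating line it was 70% (62 to 77.2) and 77.1% (71.8 to 81.9). By library, the vehicle and tamoxifen shares were separated in the neutral line (63.2% to 72.5% and 82.9% to 89.4%) and in the repressive line (74.3% to 79.7% and 92.2% to 98%). They overlapped in the activating line, at 57.4% to 77.8% and 70.2% to 85.6%. These intervals cover counting error only. Across the 18 libraries the log2 levels of the rows had a Pearson correlation of -0.23 and a Spearman correlation of -0.129, as a description, with libraries of both treatments pooled.

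**Figure D4:**
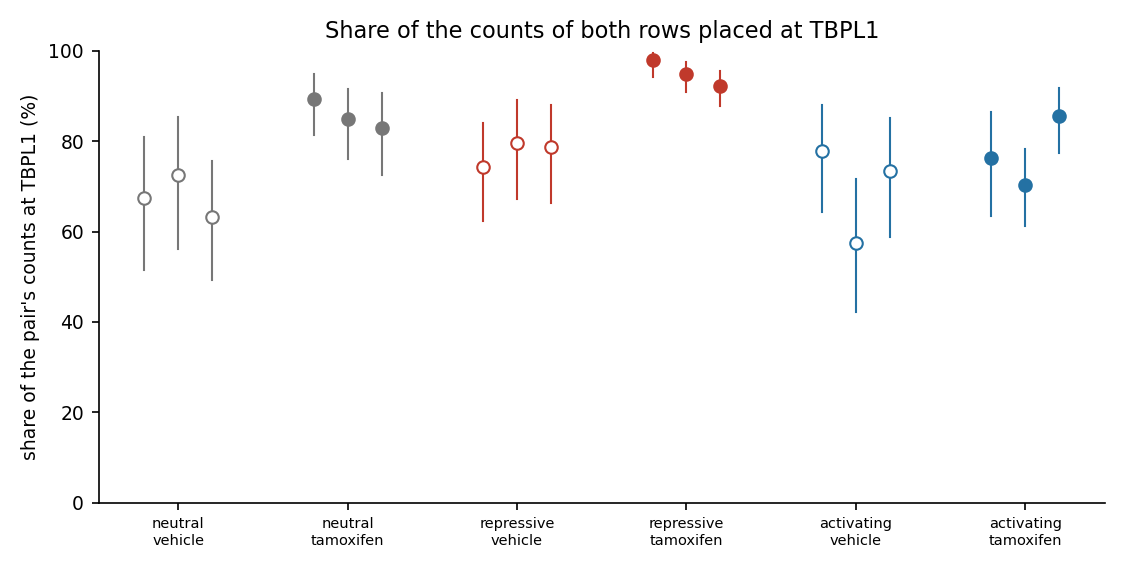
Share of the pair's counts that stood at TBPL1 (%) in each library with its 95% exact binomial interval, by construct and treatment, with open circles for vehicle and filled circles for tamoxifen. The repressive tamoxifen libraries reach 92.2% to 98%, and the activating libraries of both treatments overlap.

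With the counts of both rows summed, no decision is needed on which of these rows a read belongs to. The tamoxifen difference of the summed row was 0.89 (log2) in the neutral line, 1.75 in the repressive line and 0.95 in the activating line. For TBPL1 alone it was 1.25, 2.04 and 1.09. The sum still mixes both genes, and reads counted on the wrong strand outside the shared segment would reach neither row. Few counts stood elsewhere around the pair. Of 19 other annotated rows within 500 kb, 15 had 0 counts and 0 reached the minimum for testing. The rows with counts were EYA4, TCF21, SGK1 and LINC01010, and SGK1, a kinase gene that glucocorticoids induce in many tissues, had the most, 13 over all 18 libraries.

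Since the constructs were designed to bind AREs, the interval from the start of TBPL1 to the start of SLC2A12 (chr6:134273308-134373762, GRCh37) was searched for the canonical ARE, AGAACA and TGTTCT with any 3 bases between them, a palindrome that reads alike on both strands. It held 0 exact matches and 0 matches with 1 mismatch. Of 1660 windows of the same 100455 bases on chromosome 6, 1.87% held an exact match and 42.7% a match with at most 1 mismatch. With up to 2 mismatches 11 matches were found, against a median of 8 per window, and 22.7% of windows held at least as many. Of these, 2 lay in coding exons and are printed, on the plus strand, because they are the only ones inside mature transcripts, with the positions that the motif fixes in capitals.
TBPL1 coding exon, chr6:134301324-134301338: AGAACAagaTGTCAT
SLC2A12 coding exon, chr6:134350065-134350079: AGAACAataTGTTTG
The other 9 lay in introns. In the RefSeq promoter windows of both genes (GRCh38.p14, 250 bases before to 50 after the start), neither the full motif nor AGAACA on either strand was found. Of 35116 such windows, 14.8% held AGAACA and 0.00285% the full motif. These are counts of letters in a window, and binding was not measured in these data.

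Other glucose transporters were little represented. Of 15 others listed, 2 had enough counts to test in their own row and 0 in the row opposite them, and SLC2A2, SLC2A7, SLC2A10, SLC2A14 and SLC5A1 had 0 counts in every library, which allows up to 3.79 to 4.44 CPM in a library. That bounds the row and not the expression of the gene, since the own row of TAF13, a general transcription factor gene, was also at 0 throughout. SLC2A1, which encodes the widely expressed transporter GLUT1, had 66 to 145 counts and was not called in any line, with differences of -0.16 ± 0.22 (log2, SE), 0.11 ± 0.23 and 0.06 ± 0.22 in the neutral, repressive and activating line. SLC5A2, the sodium-glucose cotransporter of the kidney tubule, had 639 to 1062 counts. Its row fell in the activating line, from 891 ± 21.1 normalized counts (SD, n = 3) to 634 ± 22.6, a difference of -0.49 ± 0.08 (log2, SE; DESeq2 adjusted p 2.91e-07). The gene opposite SLC5A2, C16orf58, shares 1390 exonic bases with it and had 0 to 11 counts. The counts of that pair thus stood almost wholly in one row, more so than those of TBPL1 and SLC2A12.

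Genes that act on glucose after its entry were not called in their own rows. Several of these rows held few counts, such as those of the lactate dehydrogenase genes LDHA and LDHB, each with 0 to 21 in a library. The absence of calls therefore describes the rows and not the expression of the genes. Of 22 listed glycolysis and lactate genes, 19 were tested and 0 were called in any line by DESeq2 or by edgeR. In the neutral and activating lines, however, the independent filter of DESeq2 left most of the 19 without an adjusted p. No DESeq2 call was possible for those rows there, while edgeR adjusted all rows. Without adjustment, 2, 1 and 1 rows had a DESeq2 p under 0.05 in the neutral, repressive and activating line. Their median differences were 0.20, 0.15 and 0.28 (log2), and with total-count scaling 1 row was called in the repressive line, where the median was 0.02. Much more of the signal stood opposite these genes, with 496915 counts summed over the 9 opposite rows and 15360 over the 22 own rows, and GAPDH's opposite row held most of it. Over all tested rows, 0.327%, 5.62% and 1.34% were called higher in the neutral, repressive and activating line, and 0.447%, 4.02% and 1.46% lower. Of 4 opposite rows tested, 1, 2 and 2 were called higher in these lines, and 0 lower. They were RP11-192H23.5, of whose 298 exonic bases 296 overlap the aldolase gene ALDOC, and CSNK1D, a casein kinase gene that overlaps the lactate exporter gene SLC16A3. RP11-192H23.5 had 137 ± 17.3 normalized counts (SD, n = 3) with vehicle and 216 ± 11.2 with tamoxifen in the neutral line, and its differences were 0.65 ± 0.18, 0.73 ± 0.18 and 0.74 ± 0.18 (log2, SE) in the same order of lines. With edgeR 0 opposite rows were called in the neutral line. CSNK1D differed by 0.60 ± 0.18 in the repressive and 0.76 ± 0.18 in the activating line. The row opposite GAPDH was not called, with differences of -0.05, -0.02 and -0.13.

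Of 25 other genes of the TBP family and the preinitiation complex, 7 were tested in their own row. TBP itself had at most 9 counts in a library and was not tested. TAF10, a subunit of TFIID, was called higher in the repressive line (0.63 ± 0.07, log2, SE; DESeq2 adjusted p 1.91e-15) and in the activating line (0.40 ± 0.07; DESeq2 adjusted p 5.07e-06), and not in the neutral line (0.06 ± 0.08). Its row had 1151 to 2122 counts, and ILK, the integrin-linked kinase gene with which it shares 2375 exonic bases on the opposite strand, had 18 to 60. No other of the 7 rows was called, although the independent filter left most of them without an adjusted p in the neutral and activating lines. The median difference of the tested rows was -0.06, 0.32 and 0.09 in the neutral, repressive and activating line. Of 3 opposite rows tested, AP4M1, which lies opposite the TFIID gene TAF6 and encodes an adaptor protein subunit, was called lower in the repressive line (-0.34 ± 0.09, log2, SE; DESeq2 adjusted p 0.00215). Among all tested rows, 5.62% were called higher and 4.02% lower in the repressive line, and 1.34% higher and 1.46% lower in the activating line.

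**Figure D5:**
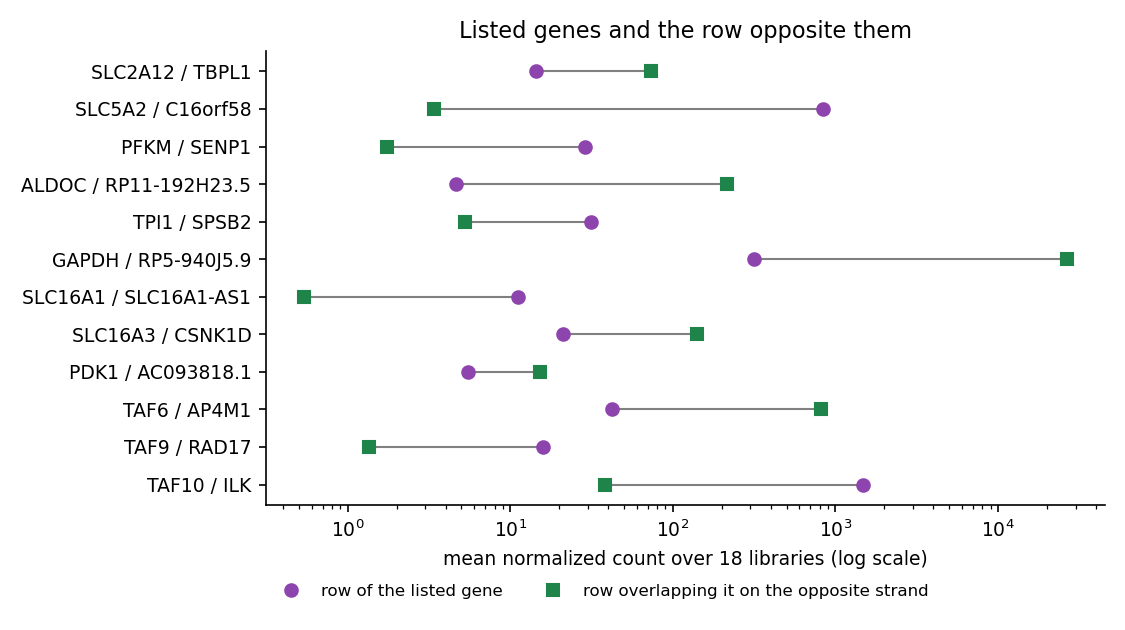
Mean normalized count over 18 libraries (log scale) of listed glucose and TBP-related genes (purple circles) and of the row that overlaps each on the opposite strand (green squares), for 12 of the 14 genes with a mean of at least 10 in either row. The other two, HK1 and ENO1, are not drawn because their opposite rows were at 0. In 6 of the 14, SLC2A12 (14.3 against 73.1 for TBPL1) among them, the opposite row was the higher one.

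Genes known to be induced by steroid receptors include some that were lower in the repressive line, where TBPL1 was highest. Of 12 listed, 5 were tested in their own row, and FKBP5 (-2.59 ± 0.45, log2, SE), TSC22D3 (-2.84 ± 0.53) and CEBPD (-2.28 ± 0.26) were called lower there. Of all tested rows, 4.02% were called lower in that line. CEBPD was also lower in the neutral line (-0.89 ± 0.24; DESeq2 adjusted p 0.00903), and KLF9 was higher in the activating line (0.89 ± 0.31; DESeq2 adjusted p 0.0436), and neither call was made by edgeR. Of the steroid list's opposite rows 1 was tested, MX1, an interferon-induced gene opposite TMPRSS2, which was higher in the repressive line (2.57 ± 0.72; DESeq2 adjusted p 0.00468). Over all tested rows, 0.327%, 5.62% and 1.34% were called higher with tamoxifen in the neutral, repressive and activating line. Among the 6 basal epithelial markers, 3, 3 and 1 were called higher in these lines. ITGB4 differed by 0.92 ± 0.23 and 0.95 ± 0.22 in the neutral and repressive line. The others called were the keratins KRT5 (0.37 and 0.43 in the neutral and repressive line), KRT14 (0.45 and 0.43 in the neutral and activating line) and KRT15 (1.00 in the repressive line). KRT15 also differed by 1.14 ± 0.33 (log2, SE) in the activating line, where the independent filter left it without an adjusted p. TP63 was not called and went both ways, with 1.44 ± 0.58, -0.58 ± 0.60 and 0.25 ± 0.52 in the neutral, repressive and activating line. By edgeR 1, 3 and 1 of the 6 basal markers were called, and with total-count scaling 3, 1 and 2. Of the luminal markers 3 were tested, and the keratin KRT8 was called lower in the activating line (-0.33 ± 0.08; DESeq2 adjusted p 0.00225) and differed by -0.26 ± 0.09 in the neutral line (DESeq2 adjusted p 0.0501). The part of these shifts in the TBPL1 values was not tested.

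The rows whose levels followed TBPL1 most closely were found by the Pearson correlation of log2(normalized count + 1) over the 18 libraries, among 1461 other rows with a mean of at least 50. CTD-2636A23.2, opposite the HMG-CoA synthase gene HMGCS1, had 0.934. RP11-138I1.4, opposite the ubiquitin gene UBB, had 0.919. AP000688.14, opposite the carbonyl reductase gene CBR1, had 0.911, and RUSC1-AS1, opposite the farnesyl diphosphate synthase gene FDPS, had 0.909. THAP2, which has no opposite-strand exon overlap, had 0.904. Each had its highest group mean in the repressive line with tamoxifen, as TBPL1 did and as a choice by correlation favours. Their spans in that line differed. CTD-2636A23.2 went from 238 to 1393 normalized counts there, and RP11-138I1.4 from 4501 to 5929. These libraries share the same 6 groups, so the correlations mainly compare group means, and no p is given.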

How the data were processed

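RWPE-1 cells with 3 MACC constructs and 2 treatments gave 18 RNA-seq libraries (6 groups of 3). The authors used the Illumina Stranded mRNA Prep kit and nf-core/rnaseq 3.10 (GRCh37) with Salmon 1.9.0, and deposited expected counts for each gene, with no scaling for library depth or gene length. The strand setting and the annotation version are not given in the sources used here. Of the deposited values, 1.1% were not whole, and all were rounded. Positions came from GENCODE v44 mapped to GRCh37, which may differ from the authors' annotation and matched 96.1% of rows by identifier.

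The 5816 rows that reached 10 counts in 3 or more libraries were fitted with DESeq2 1.42.0 (R 4.3.3) as 6 group means, with size factors by median of ratios, independent filtering, Wald tests and Benjamini-Hochberg adjustment at 0.05. The code was tested on simulated data. SLC2A12 was tested over lines with an exact permutation test of log2(normalized count + 1). The authors' use of DESeq2 guided this choice. Alternatives were edgeR 4.0.16 quasi-likelihood tests with TMM, total-count scaling, no filters, a replicate block, summed rows and leaving out each library. Named rows were the pair, tested neighbours within 500 kb, list members called in a tamoxifen comparison, and the 5 rows most like TBPL1, besides ones named after their values were seen (SLC2A1, GAPDH, TBP, SGK1, C16orf58, ILK, HK1, ENO1, CD68, TP63 and rows at 0 or near it). The pair, the lists and the rules were chosen with earlier results of these data known, and no list is independent support.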

Additional observations from a re-analysis of the deposited data

How the results depend on the processing

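The tamoxifen difference of the TBPL1 row kept its direction in each line under every alternative run. With the counts of both rows summed it was 0.89 in the neutral, 1.75 in the repressive and 0.95 in the activating line, while total-count scaling moved the median of all rows in the repressive line from -0.02 to -0.16. Leaving out 1 library at a time gave 1.17 to 1.36 (neutral), 1.92 to 2.21 (repressive) and 0.95 to 1.31 (activating). For the interactions it gave 0.67 to 0.96 (repressive minus neutral), -0.30 to 0.06 (activating minus neutral) and -1.12 to -0.73 (activating minus repressive). The last had a DESeq2 adjusted p of 0.0437 without replicate 1 of the repressive tamoxifen group, and 0.0437 to 0.349 over all libraries left out. The activating minus neutral interaction reversed to 0.05 with summed rows and to 0.06 without replicate 1 of the activating tamoxifen group. In vehicle the ranges were 0.46 to 0.64 (repressive minus neutral), -0.08 to 0.19 (activating minus neutral) and -0.62 to -0.34 (activating minus repressive). The second reversed to -0.02 without replicate 2 of the neutral vehicle group and to -0.08 without replicate 1 of the activating vehicle group. The SLC2A12 difference was -0.28 to 0.09, and the share at TBPL1 was 81.6% to 84.3%, an alternative chosen after seeing the data.

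The sample labels do not state whether the replicate numbers pair the samples. Deviations from group means in same-numbered vehicle and tamoxifen libraries of a line had correlations from -0.302 to 0.138. These were all positive only in the activating line (0.116, 0.138 and 0.0478), so a pairing was neither shown nor excluded. With the replicate block the TBPL1 differences were 1.26, 2.03 and 1.07, the SLC2A12 difference was -0.13 (exact sign-flip p = 0.785), and no call of either row changed.

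Counts of called rows moved by more than 1.5 times in some settings. In the neutral line 45 rows were called, 22 with edgeR, 26 without independent filtering, and 27 and 23 without replicates 1 and 3 of the tamoxifen group. In the activating line 163 were called, 102 with edgeR, 96 without vehicle replicate 2 and 94 without tamoxifen replicate 3. For the activating minus neutral interaction 36 were called, 17 with edgeR and 22 without independent filtering. In vehicle 47 were called between the activating and neutral lines, 4 with edgeR, 29 with total-count scaling, 8 without independent filtering and 2 to 53 with 1 library left out, and 100 between the activating and repressive lines, 65 without activating replicate 3. Total-count scaling also turned the split in the repressive line from 327 of 561 called rows higher to 229 of 612.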
